A study of Mus musculus with 2 samples.

Results

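The Gimap genes (GTPases of the immunity-associated protein family) were followed in innate lymphoid cells (ILCs), lymphocytes without rearranged antigen receptors, from the mouse gut. All 8 genes of the family that the deposited count table lists were taken by name, Gimap1, Gimap3, Gimap4, Gimap5, Gimap6, Gimap7, Gimap8 and Gimap9, out of 17238 genes in the table. The rule that lists them uses no expression value. There were 2 single-cell libraries (10x Genomics Chromium 3′ v2), one of small intestine and one of colon, from fed C57BL/6 mice aged 8 weeks, each a pool of 8 mice, and both sorted as IL7ra+ ILC. No genotype, agent or further treatment is named in the labels for either library. The table held 5490 small intestinal and 7549 colonic cells. Within each tissue, cells were grouped by at least 1 unique molecular identifier (UMI, 1 captured RNA molecule) of a marker gene: Ccr6 for lymphoid tissue inducer-like ILC3, Ncr1 for the NKp46+ ILC3 and ILC1, Gata3 for ILC2, Klrd1 for ILC1 and NK cells, and Cd3e for T cells. With 1 library per tissue, no test of the tissues was possible: intervals below are 95% intervals that cover counting error only, and variation between mice or libraries was not measured.

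Gimap proteins are GTP-binding proteins of the septin-related AIG1 class, found mainly in lymphocytes, and several sit on membranes of internal organelles. They are best known from T cells, where loss of single members, above all Gimap5, shortens the life of resting cells and causes lymphopenia in rodents. Gimap3 and Gimap5 have been tied to proteins of the Bcl2 family and to mitochondrial and lysosomal membranes, Gimap6 binds the autophagy protein Gabarapl2, and Gimap1 is needed for mature T and B cells to persist.

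The 8 genes form 1 cluster on chromosome 6, at chr6:48647234-48770851 of mm10 (123.6 kb, GENCODE vM21). In order along the chromosome they are Gimap8, Gimap9, Gimap4, Gimap6, Gimap7, Gimap1, Gimap5 and Gimap3. Gimap6 and Gimap3 lie on the minus strand and the other 6 on the plus strand. The 250 bases upstream of the RefSeq start (GRCm38.p6, plus strand, 5′ to 3′) are printed for the pair whose level varied most over cells and tissues, Gimap4 (chr6:48684328-48684577) and Gimap7 (chr6:48718371-48718620), and for a pair that varied least, Gimap1 (chr6:48738797-48739046) and Gimap8 (the first of its 2 starts, chr6:48646984-48647233). Capitals mark matches to the motifs searched:
Gimap4: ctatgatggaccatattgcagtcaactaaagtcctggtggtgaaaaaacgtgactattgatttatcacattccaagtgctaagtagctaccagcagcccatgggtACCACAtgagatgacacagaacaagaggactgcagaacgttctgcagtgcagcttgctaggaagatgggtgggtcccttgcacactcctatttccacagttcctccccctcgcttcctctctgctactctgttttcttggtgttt
Gimap7: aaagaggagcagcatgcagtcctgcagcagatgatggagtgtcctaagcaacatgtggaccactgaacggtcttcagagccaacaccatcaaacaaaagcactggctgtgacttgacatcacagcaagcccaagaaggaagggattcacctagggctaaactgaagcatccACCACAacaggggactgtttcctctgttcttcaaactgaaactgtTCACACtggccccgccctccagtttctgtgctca
Gimap1: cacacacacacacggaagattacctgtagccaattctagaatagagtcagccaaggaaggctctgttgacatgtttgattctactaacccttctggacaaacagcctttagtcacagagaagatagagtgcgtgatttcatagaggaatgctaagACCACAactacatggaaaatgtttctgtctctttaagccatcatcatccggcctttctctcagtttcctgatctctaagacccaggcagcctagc
Gimap8: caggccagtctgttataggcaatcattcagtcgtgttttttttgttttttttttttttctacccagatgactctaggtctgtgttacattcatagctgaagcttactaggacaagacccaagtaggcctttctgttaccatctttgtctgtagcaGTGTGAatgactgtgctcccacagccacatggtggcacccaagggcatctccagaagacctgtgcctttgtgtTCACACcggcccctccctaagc
In windows of 300 bases, from 250 before to 50 after each start, both strands were searched for 5 sets of letters, and the family had 9 windows for its 8 genes. Each set of letters is given as read on 1 strand, and its reverse complement counted too. The RUNX core TGTGGT was found in the windows of Gimap1, Gimap4 and Gimap7, and in 16.8% of all 32851 windows of that length. The T-box letters GTGTGA were found in the windows of Gimap7 and in both of Gimap8, and in 14.5% of all windows. The nuclear receptor half-site AGGTCA was found in 1 window, that of Gimap4 (downstream of the start and so not printed), and in 16.3% of all. The letters AGATAA of GATA factors were found in 0 of the 9 windows, against 11.2% of all. The letters CCGGAA of ETS factors were likewise found in 0, against 14.9% of all. RUNX and T-box matches were thus present both in the genes that varied most and in those that varied least, and no match shows binding.

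The libraries had 15080081 UMIs in the cells of the small intestine and 22332691 in those of the colon, with medians of 2579 and 2600 UMIs and 2.49% and 2.69% mitochondrial UMIs per cell. A total of 60 barcodes occurred in both libraries. Il7r, which encodes the receptor chain used for sorting, was present at 874 counts per 1000000 UMIs (CPM) in small intestine against 496 CPM in colon. In both tissues every marker of the ILC2 and ILC1/NK lists was found at least once, and epithelial markers summed to 26.2 and 11.8 CPM. Of 7 myeloid markers 6 were found in each tissue, with sums of 1329 CPM in small intestine and 555 CPM in colon. The other marker, Csf1r, was not among the genes counted. Cd3e was found in 7.81% of small intestinal and 18.3% of colonic cells, so the sort held T cells or cells with T-cell RNA. Antibody and other B-lineage markers summed to 7228 CPM in small intestine against 2471 CPM in colon. RNA free in the droplets made up an estimated 5.36% and 8.25% of the UMIs in cells. The marker groups overlapped: of the 172 Klrd1+ cells of the small intestine, 90 also had Ncr1 and 50 also had Cd3e, and of the 482 in the colon 217 had Ncr1 and 94 had Cd3e.

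The summed Gimap level was highest in Klrd1+ cells and lowest in Ccr6+ cells in both tissues, and was higher in the small intestine than in the colon in every marker group. In the small intestine the 8 genes together reached 1279 CPM in Ccr6+ cells (n = 541), 1825 in Gata3+ cells (n = 1643), 2624 in Ncr1+ cells (n = 1605), 2762 in Cd3e+ cells (n = 429) and 3470 in Klrd1+ cells (n = 172). In the colon they reached 787 CPM in Ccr6+ cells (n = 357), 1096 in Gata3+ cells (n = 4218), 1769 in Cd3e+ cells (n = 1384), 1993 in Ncr1+ cells (n = 665) and 2304 in Klrd1+ cells (n = 482). All neighbours in these orders had intervals apart except Ncr1+ and Cd3e+ cells of the small intestine, at 2578 to 2671 and 2667 to 2859 CPM. Ccr6+ cells of the small intestine (1220 to 1340 CPM) lay above Gata3+ cells of the colon (1079 to 1114 CPM), so the tissue difference crossed the order of the groups. The highest group stood 2.71-fold above the lowest in small intestine and 2.93-fold in colon. When every cell was first thinned to 1000 UMIs and the markers were called on what was left, the colonic spread was 2.33 on the log2 scale, against 1.55 without thinning.

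Over all cells the family stood at 2040 CPM (2017 to 2063) in small intestine and 1246 CPM (1231 to 1260) in colon, a ratio of 1.64 (1.61 to 1.66). The log2 ratio was 0.70 in Ccr6+ cells (0.60 to 0.81), 0.40 in Ncr1+ cells (0.35 to 0.45), 0.73 in Gata3+ cells (0.70 to 0.77), 0.59 in Klrd1+ cells (0.51 to 0.68) and 0.64 in Cd3e+ cells (0.58 to 0.70). Ncr1+ cells thus had the smallest tissue ratio, with an interval below those of the other 4 groups. The median gene of the whole table also lay above 0, at 0.20 over all cells and between 0.15 and 0.21 in the 5 groups. Relative to that median the family's log2 ratio was 0.51 over all cells, 0.57 in Gata3+ cells and 0.19 in Ncr1+ cells. The mix of cells differed between the tissues, Gata3+ cells being 29.9% of the small intestinal and 55.9% of the colonic cells. With the small intestinal levels weighted to the colonic mix of 7 disjoint marker sets, the small intestine stood at 1935 CPM against 1246 CPM in the colon.

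The level of a heat-shock gene moved with the tissue as well. Hspa1a, an inducible chaperone gene that responds to tissue digestion, stood at 132 CPM in small intestine against 243 CPM in colon, and in Ccr6+ cells at 105 and 530 CPM. When only cells with 0 UMIs of Hspa1a were kept, the Gimap log2 ratio was 0.70 over all cells and 0.76 in Ccr6+ cells. T-cell RNA moved with the marker groups: 10 T-cell markers summed to 1067 CPM in Ccr6+, 1515 in Ncr1+, 1929 in Gata3+, 3739 in Klrd1+ and 7354 in Cd3e+ cells of the small intestine. The colonic sums were 1277, 1362, 1971, 2265 and 5598 CPM in the same order of groups, with Cd8a at 0 in Ccr6+ cells of both tissues and in colonic Ncr1+ cells. Ncr1+ cells had less T-cell RNA than Gata3+ cells and a higher Gimap sum. Beyond these values, the part of heat-shock and T-cell RNA in the Gimap levels was not tested. Without any cell that had a Cd3e UMI, the family's log2 ratio over all cells was 0.82, and the spread over groups was 1.45 in small intestine and 1.70 in colon.

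**Figure D1:**
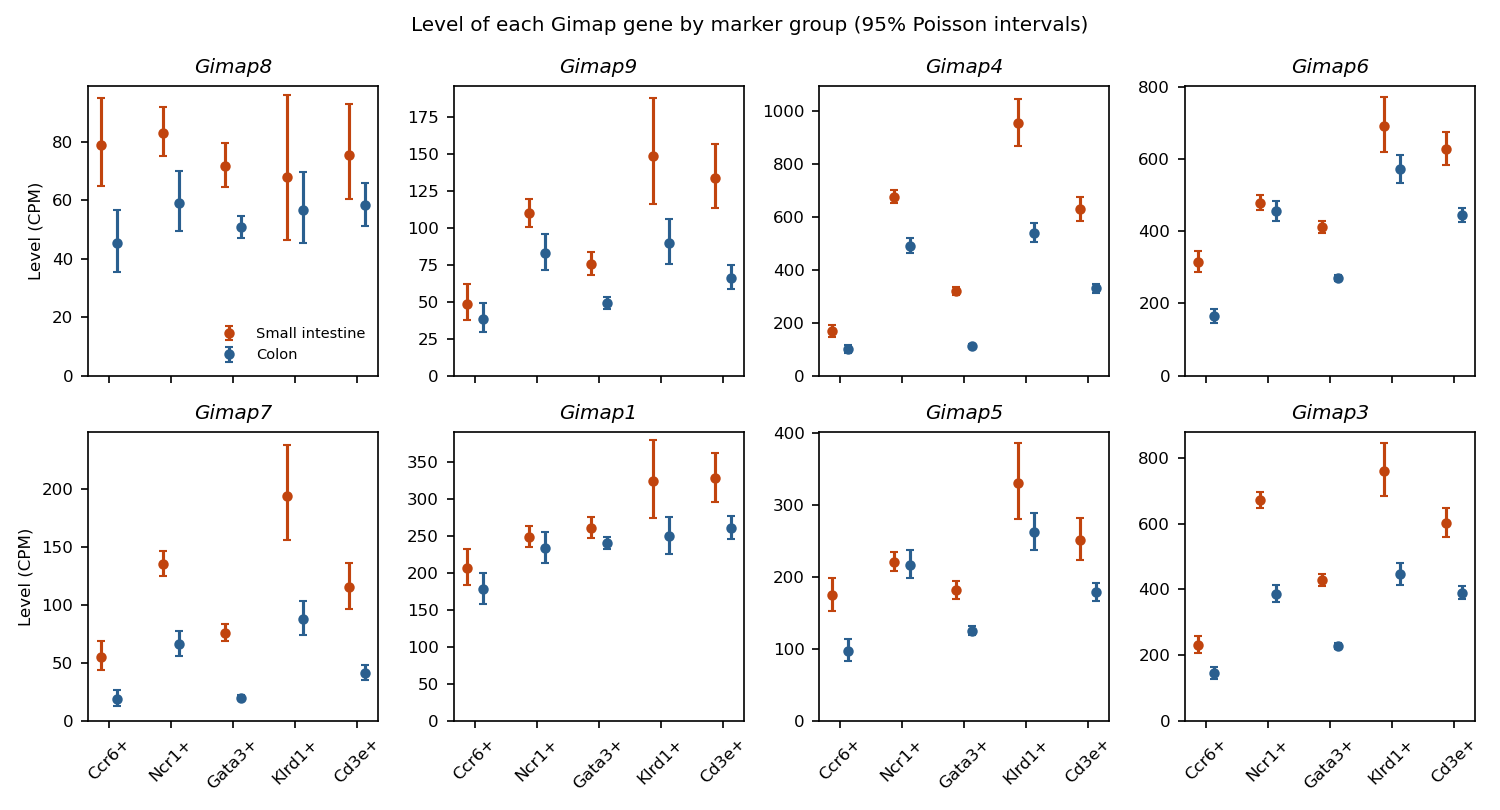
Level of each Gimap gene (vertical axis, CPM, each panel with its own scale from 0) in the 5 marker groups of the small intestine (red) and colon (blue), 1 library per tissue, with bars for 95% Poisson intervals. Gimap4, Gimap7 and Gimap3 differ several-fold between the groups, while the points of Gimap8 lie between 68.1 and 83.3 CPM in the small intestine and between 45.3 and 59.2 CPM in the colon.

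The members did not share 1 pattern. Gimap4 (chr6:48684549-48692060, plus strand), a regulator of T-cell death, varied most over the groups. In the small intestine it stood at 168 CPM in Ccr6+, 319 in Gata3+, 628 in Cd3e+, 676 in Ncr1+ and 954 in Klrd1+ cells. In the colon it stood at 99.8 CPM in Ccr6+, 112 in Gata3+, 329 in Cd3e+, 491 in Ncr1+ and 540 in Klrd1+ cells. The highest group was 5.68-fold above the lowest in small intestine and 5.41-fold in colon, with Klrd1+ and Ncr1+ cells high and Ccr6+ and Gata3+ cells low in both. Colonic Klrd1+ and Ncr1+ cells had overlapping intervals. Its share of the family's UMIs went from 10.2% in colonic Gata3+ cells to 27.5% in small intestinal Klrd1+ cells.

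The tissue ratio of Gimap4 depended on the group. Over all cells it was 438 CPM in small intestine against 178 CPM in colon, a ratio of 2.46 (2.37 to 2.56). In Gata3+ cells the ratio was 2.84 (2.65 to 3.05), and in Ncr1+ cells it was 1.38 (1.29 to 1.48). The Gimap4 intervals of colonic Ccr6+ cells (85.1 to 116 CPM) and colonic Gata3+ cells (107 to 118 CPM) overlapped, whereas in the small intestine the intervals of Gata3+ cells (304 to 335 CPM) and Ccr6+ cells (147 to 191 CPM) lay apart. In colonic cells with 1 of the markers only they lay apart too, at 31.5 CPM in Ccr6-only (18.7 to 49.8) and 73.0 CPM in Gata3-only cells (67.9 to 78.3).

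Gimap7 (chr6:48718621-48724636, plus strand), a GTPase that can stimulate GTP hydrolysis of other family members, had the largest tissue ratio. It stood at 93.8 CPM in small intestine against 26.3 CPM in colon, a ratio of 3.56 (3.23 to 3.93). In the small intestine its level was 55.3 CPM in Ccr6+, 76.0 in Gata3+, 115 in Cd3e+, 135 in Ncr1+ and 194 in Klrd1+ cells. In the colon it was 19.0 CPM in Ccr6+, 20.3 in Gata3+, 41.7 in Cd3e+, 66.3 in Ncr1+ and 87.9 in Klrd1+ cells. The interval of the tissue ratio lay above 1 in each group, and the ratio ran from 2.04 in Ncr1+ cells to 3.73 in Gata3+ cells. After thinning each cell to 1000 UMIs, 8.51% of small intestinal and 2.56% of colonic cells had a Gimap7 UMI. Free RNA alone would have given a UMI to an estimated 0.491% and 0.148% of them.

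Gimap3 (chr6:48764464-48770851, minus strand), a mitochondrial-membrane member closely related to Gimap5, came after Gimap7 and Gimap4 by tissue ratio over all cells. It stood at 497 CPM in small intestine against 259 CPM in colon, a ratio of 1.91 (1.85 to 1.98). Its small intestinal level was 231 CPM in Ccr6+, 428 in Gata3+, 602 in Cd3e+, 671 in Ncr1+ and 760 in Klrd1+ cells. In the colon it was 145 CPM in Ccr6+, 228 in Gata3+, 387 in Ncr1+, 390 in Cd3e+ and 446 in Klrd1+ cells. The tissue ratio of Gimap3 ran from 1.55 in Cd3e+ cells (1.41 to 1.69) to 1.88 in Gata3+ cells (1.78 to 1.98). In cells with 1 of the markers only, it ran from 0.988 in Klrd1-only cells (0.678 to 1.41) to 2.59 in Ccr6-only cells (1.83 to 3.74). In Ncr1+ cells, where Gimap1, Gimap5 and Gimap6 did not differ beyond their counting intervals, Gimap3 kept a ratio of 1.73 (1.61 to 1.87).

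Gimap6 (chr6:48701582-48708225, minus strand), the partner of Gabarapl2, and Gimap5 (chr6:48746197-48754210, plus strand), the member whose loss causes lymphopenia, went together. Gimap6 stood at 315 CPM in Ccr6+, 412 in Gata3+, 479 in Ncr1+, 628 in Cd3e+ and 692 in Klrd1+ cells of the small intestine. In the colon Gimap6 stood at 164 CPM in Ccr6+, 270 in Gata3+, 445 in Cd3e+, 456 in Ncr1+ and 572 in Klrd1+ cells. Both tissues had Gimap6 highest in Klrd1+ cells, where in the small intestine the interval overlapped that of Cd3e+ cells. Gimap5 stood at 175 CPM in Ccr6+, 182 in Gata3+, 221 in Ncr1+, 252 in Cd3e+ and 330 in Klrd1+ cells of the small intestine. In the colon Gimap5 stood at 97.4 CPM in Ccr6+, 125 in Gata3+, 179 in Cd3e+, 217 in Ncr1+ and 262 in Klrd1+ cells. Both genes were higher in the small intestine over all cells, Gimap6 by a ratio of 1.35 (1.30 to 1.39) and Gimap5 by 1.40 (1.33 to 1.47). In Ncr1+ cells neither differed beyond its counting interval, with log2 ratios of 0.07 (-0.04 to 0.18) for Gimap6 and 0.03 (-0.13 to 0.19) for Gimap5. Scaled to the median gene, both ratios in Ncr1+ cells turned to the colon, at -0.14 and -0.18.

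Gimap9 (chr6:48676129-48679114, plus strand) stood at 48.8 CPM in Ccr6+, 75.8 in Gata3+, 110 in Ncr1+, 134 in Cd3e+ and 149 in Klrd1+ cells of the small intestine. In the colon it stood at 38.6 CPM in Ccr6+, 49.1 in Gata3+, 66.4 in Cd3e+, 82.9 in Ncr1+ and 89.8 in Klrd1+ cells. Its tissue ratio was 1.54 over all cells (1.42 to 1.67). The largest ratio, 2.02 (1.65 to 2.46), was in Cd3e+ cells and the smallest, 1.27 (0.885 to 1.81), in Ccr6+ cells.

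Gimap1 and Gimap8 varied least. Gimap1 (chr6:48739054-48743795, plus strand), needed for the survival of mature lymphocytes, lay between 207 CPM in Ccr6+ and 327 CPM in Cd3e+ cells of the small intestine and between 178 CPM in Ccr6+ and 261 CPM in Cd3e+ cells of the colon. Over all cells it stood at 247 CPM in small intestine against 234 CPM in colon, a ratio of 1.06 (1.01 to 1.10). Scaled to the median gene, the log2 ratio of Gimap1 turned to the colon over all cells (-0.13), in Ncr1+ cells (-0.12) and in Gata3+ cells (-0.05). Gimap8 (chr6:48647234-48660875, plus strand), which holds several GTP-binding domains, was the 1 member without an order of the groups: in each tissue the intervals of all neighbours overlapped, and the highest group was 1.22-fold above the lowest in small intestine and 1.31-fold in colon. It still differed between the tissues, at 78.2 CPM against 51.9 CPM over all cells, a ratio of 1.51 (1.39 to 1.64). Gimap1 therefore had the smallest tissue ratio and Gimap8 the smallest spread over the 5 overlapping groups. In small intestinal cells with 1 of the markers only the spread of Gimap8 was 2.05-fold, from Gata3-only to Klrd1-only cells, with overlapping intervals of all neighbours in that order. Scaled to the median gene, the log2 ratio of Gimap8 was 0.39.

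**Figure D2:**
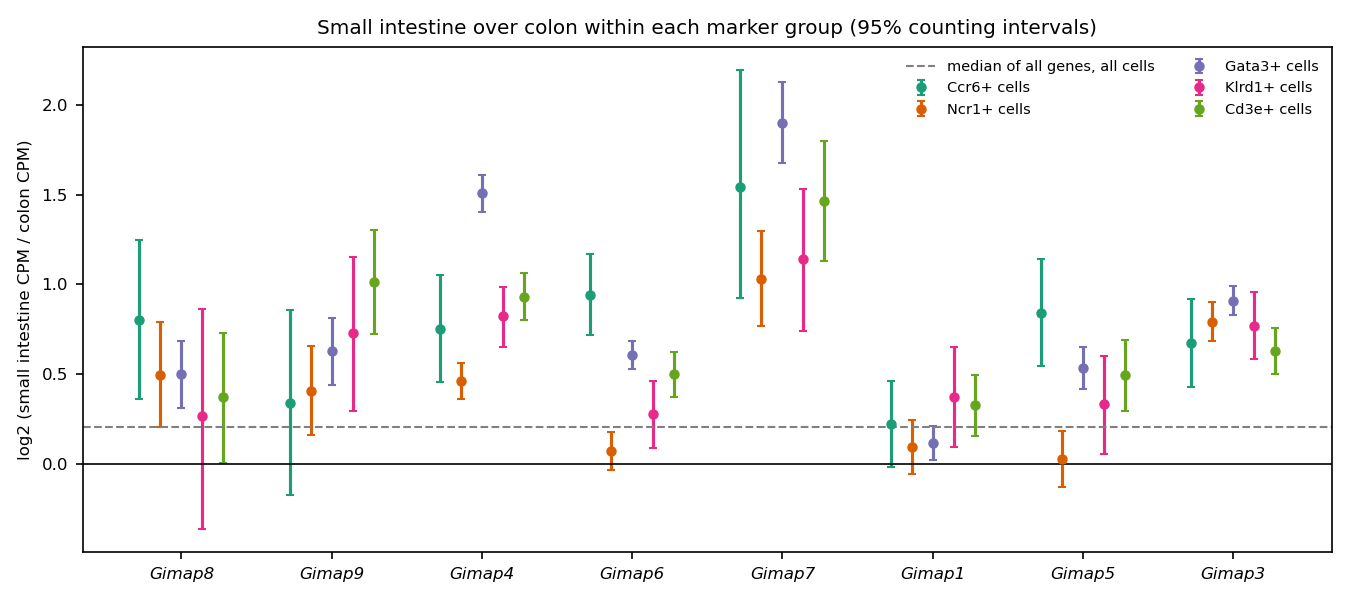
Log2 ratio of the small intestinal to the colonic level (vertical axis) of each Gimap gene within the 5 marker groups, with 95% counting intervals, a solid line at 0 and a dashed line at the median of all genes over all cells (0.20). Gimap7 has the highest points, from 1.03 to 1.90, while Gimap1 lies between 0.09 and 0.37 and Gimap5 and Gimap6 of Ncr1+ cells lie near 0.

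A gene was counted when its level differed at least 2-fold and it had at least 20 UMIs over both sets. Over all cells 2 of the 8 members, Gimap4 and Gimap7, were past 2-fold toward the small intestine, against 8.92% of 11962 genes, and 0 were at least 2-fold higher in the colon, against 5.42%. In Ccr6+ cells the count was 1 (Gimap7), against 7.47% of genes, and in Ncr1+ cells 1 (Gimap7), against 9.26%. In Gata3+ cells it was 2 (Gimap4 and Gimap7), against 7.42%, in Klrd1+ cells 1 (Gimap7), against 7.17%, and in Cd3e+ cells 2 (Gimap7 and Gimap9), against 5.12%. Gimap7 was thus past 2-fold in all 5 groups before scaling to the median gene. The interval of its ratio reached below 2 in Ccr6+ (1.90 to 4.57), Ncr1+ (1.70 to 2.46) and Klrd1+ cells (1.67 to 2.89). Scaled to the median gene, its log2 ratio was below 2-fold in Ncr1+ (0.82) and Klrd1+ cells (0.98). It stayed past 2-fold in Ccr6+ (1.36), Gata3+ (1.74) and Cd3e+ cells (1.32), while Gimap9 fell below 2-fold in Cd3e+ cells (0.87). No member was past 2-fold toward the colon in any of the 5 groups, where 3.4% of genes were in Ccr6+, 4.13% in Ncr1+, 4.4% in Gata3+, 4.89% in Klrd1+ and 4.32% in Cd3e+ cells. The median log2 ratio of the 8 members over all cells was 0.61, against 0.20 for all genes tested. All 8 ratios were above 1 over all cells and within each of the 5 groups before scaling to the median gene, as were 68.2% of all genes over all cells. Within the groups 64.1% of genes were above 1 in Ccr6+, 66.9% in Ncr1+, 65.1% in Gata3+, 61.6% in Klrd1+ and 62.5% in Cd3e+ cells. With 1.5-fold in place of 2-fold, a threshold chosen after the values were seen, 5 of the 8 members were counted over all cells. The share of all genes past 1.5-fold was not counted, so this number has no background beside it.

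Within a tissue, each marker group was also set against the cells without that marker. In the small intestine Ccr6+ cells had 2 members at least 2-fold lower, Gimap4 (168 against 466 CPM) and Gimap3 (231 against 524 CPM), beside 7.58% of all genes. In the colon they had 0 members at least 2-fold lower, beside 8.35% of genes, although all 8 were lower, as were 44.2% of all genes. Among small intestinal cells, Ncr1+ cells had 1 member at least 2-fold higher than the other cells (Gimap4), beside 1.9% of genes. Among colonic cells they had 2 (Gimap4 and Gimap7), beside 4.38%. Klrd1+ cells had 2 such members in the small intestine (Gimap4 and Gimap7), beside 5.9%, and 4 in the colon (Gimap4, Gimap5, Gimap6 and Gimap7), beside 4.81%. Colonic Cd3e+ cells had 1 (Gimap4), beside 3.79%, and those of the small intestine 0, beside 3.93%. Gata3+ cells had 1 member at least 2-fold lower in the colon, Gimap4 at 112 against 279 CPM, beside 6.4% of genes, and 0 in the small intestine, beside 3.85%. In the opposite directions 0 members passed. In the small intestine 5.83% of all genes were past 2-fold upward in Ccr6+ and 2.75% in Gata3+ cells, and 5.68% were past 2-fold downward in Ncr1+, 15.9% in Klrd1+ and 11.6% in Cd3e+ cells. In the colon these shares were 8.16% and 2.9% upward in Ccr6+ and Gata3+ cells, and 7.48%, 8.93% and 5.86% downward in Ncr1+, Klrd1+ and Cd3e+ cells. Gimap4 was among the members in each contrast that counted any.

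Cells positive for 1 of the 5 markers only gave a wider spread in the colon. There the family stood at 489 CPM in Ccr6-only cells (n = 178), 1000 in Gata3-only (n = 3476), 1979 in Cd3e-only (n = 870), 1998 in Ncr1-only (n = 268) and 2537 in Klrd1-only cells (n = 120). In the small intestine it stood at 1115 CPM in Ccr6-only (n = 377), 1552 in Gata3-only (n = 1092), 2607 in Klrd1-only (n = 31), 2621 in Ncr1-only (n = 1102) and 2813 in Cd3e-only cells (n = 282). The highest over the lowest set was 5.19-fold in the colon, against 2.93-fold for the overlapping groups, and 2.52-fold in the small intestine. Klrd1-only cells no longer had the highest value in the small intestine, where their interval overlapped that of Ncr1-only cells. They held 194 UMIs of the family there, and their order against Cd3e-only cells was not settled. In colonic Ccr6-only cells Gimap4 stood at 31.5 CPM (18 UMIs), 18.1-fold below colonic Klrd1-only cells at 569 CPM, and Gimap3 at 71.8 CPM, 7.39-fold below them at 531 CPM.

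The tissue ratio of the family moved beyond its counting interval with this choice in 4 of the 5 groups. It was 1.19 on the log2 scale in Ccr6-only cells (0.997 to 1.39), against 0.70 in all Ccr6+ cells, and 0.04 in Klrd1-only cells (-0.19 to 0.27), against 0.59 in all Klrd1+ cells. Klrd1-only cells of the 2 tissues thus did not differ beyond counting error, with 31 cells in the small intestine. The ratio was 0.63 in Gata3-only cells, against 0.73, and 0.51 in Cd3e-only cells, against 0.64. In Ncr1-only cells it was 0.39, against 0.40. In Ccr6-only cells 4 members were past 2-fold toward the small intestine (Gimap3, Gimap4, Gimap6 and Gimap7), beside 8.23% of genes. Gimap7 had 3 UMIs in the colonic set there, which gives a log2 ratio of 3.03 with an interval from 1.38 to 5.37. The counts were 1 in Ncr1-only cells (beside 12.8% of genes), 2 in Gata3-only (6.19%), 2 in Klrd1-only (8.6%) and 1 in Cd3e-only cells (5.29%). Toward the colon 0 members passed in any of the 5 sets, beside 2.76% of genes in Ccr6-only, 3.77% in Ncr1-only, 4.61% in Gata3-only, 10.5% in Klrd1-only and 4.17% in Cd3e-only cells.

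Cells with none of the 5 markers, 1882 in small intestine and 1615 in colon, had a Gimap sum of 1835 and 994 CPM, a log2 ratio of 0.88 (0.83 to 0.94). In them Gimap3, Gimap4 and Gimap7 were past 2-fold toward the small intestine, beside 9.1% of genes, Gimap7 by a ratio of 5.15, and 0 members passed toward the colon, beside 4.26%. Cells with exactly 2 markers were compared where at least 50 held the pair. Those with Ncr1 and Klrd1 reached 3736 CPM in the small intestine (n = 67) and 2971 CPM in the colon (n = 148), the highest of the marker pairs with at least 50 cells in each tissue. Cells with Ccr6 and Gata3 stood at 1306 and 803 CPM, and those with Ncr1 and Gata3 at 2526 and 1697 CPM. Gata3 together with Cd3e gave 2311 and 1480 CPM, between the sums of the Gata3-only and Cd3e-only sets.

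Sets made with other marker genes gave further levels of the family. Cells with Tbx21, the transcription factor gene of ILC1 and NK cells, had a Gimap sum of 3026 CPM in the small intestine (n = 406) and 2030 CPM in the colon (n = 293). Cells with Trdc, a T-cell receptor delta gene, had 2843 and 1809 CPM. Cells with Il1rl1, which encodes the ILC2 receptor ST2, were low at 1252 CPM (n = 116) and 1050 CPM (n = 1387). The log2 tissue ratio of the sum was 0.25 in Il1rl1+ cells (0.12 to 0.38), against 0.73 in Gata3+ cells. It was 0.58 in Tbx21+ and 0.65 in Trdc+ cells. In Il1rl1+ cells the tissue ratio of Gimap4 was 1.56 (1.18 to 2.03), and that of Gimap1 was 0.726 (0.558 to 0.929), toward the colon. Eomes was found in 4 and 13 cells, too few for a level of the family.

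The difference between groups was also seen in the number of Gimap genes found per cell. After thinning to 1000 UMIs, no Gimap gene was found in 34.9% of Ccr6+, 23.0% of Gata3+, 11.7% of Cd3e+, 10.2% of Ncr1+ and 8.14% of Klrd1+ cells of the small intestine. In the colon the shares were 60.2% of Ccr6+, 39.8% of Gata3+, 21.8% of Ncr1+, 21.0% of Cd3e+ and 15.98% of Klrd1+ cells. At least 3 Gimap genes were found in 9.24% of Ccr6+ cells and 86 of 172 Klrd1+ cells of the small intestine, and in 1.68% and 36.1% of these groups in the colon. Most cells of each group except colonic Ccr6+ cells thus had a UMI of the family at this depth. Without thinning, the share of cells with any Gimap UMI was 94.7% in small intestine and 88.0% in colon. No cell type here is known to lack the family, so free RNA served as the background: it would have given a Gimap UMI to an estimated 10.6% and 9.23% of thinned cells. Against this, 65.1% to 91.9% of thinned cells of the small intestinal groups and 39.8% to 84.0% of those of the colonic groups had one.

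**Figure D3:**
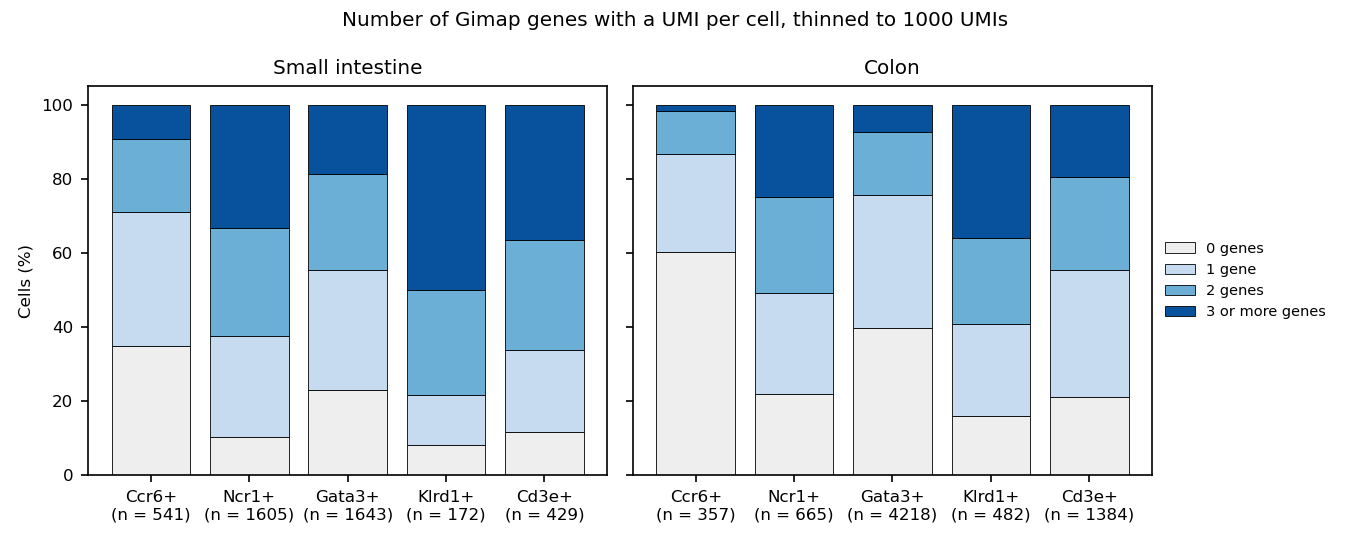
Share of cells (vertical axis, percent) with 0, 1, 2 or at least 3 of the 8 Gimap genes detected, for the 5 marker groups of each tissue, after thinning every cell to 1000 UMIs. The share with 0 genes runs from 8.14% of Klrd1+ cells of the small intestine to 60.2% of colonic Ccr6+ cells.

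Within cells, detection of 1 member went with detection of others only weakly. Over the 28 pairs of members, cells with both genes were 1.04 to 1.25 times the number that followed from the single shares in 8 of the 10 single-marker sets. The other two, colonic Ncr1-only and Ccr6-only cells, had 1.26 and 1.91 times as many, the latter from 18 cells with both genes against 9.42. Across the 10 single-marker sets, Gimap6 and Gimap5 had the highest correlation of their levels (Pearson r = 0.97 of log2(CPM + 10)), followed by Gimap4 and Gimap3 (0.97). Gimap8 had the lowest values, 0.49 with Gimap6 and 0.50 with Gimap5. These sets come from only 2 libraries and share their depth and free RNA, so the values describe these sets.

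Across the same 10 sets, the 5 genes whose level was most like the Gimap sum, of 8114 compared, were Klf3 (r = 0.95), Selplg (0.95), Nedd9 (0.94), Capza1 (0.94) and Ikzf2 (0.92). Selplg, which encodes the P-selectin ligand PSGL-1, went from 215 CPM in colonic Ccr6-only cells to 1047 CPM in small intestinal Cd3e-only cells. Ikzf2, which encodes the transcription factor Helios, went from 95.5 CPM in colonic Gata3-only cells to 672 CPM in small intestinal Klrd1-only cells. Klf3, a transcription factor gene, spanned 78.8 to 183 CPM, Nedd9, an adhesion-signalling scaffold gene, 31.5 to 175 CPM, and Capza1, an actin-capping protein gene, 47.3 to 136 CPM. All 5 had their lowest level in a colonic set, as did the Gimap sum, which follows largely from choosing them by likeness to that sum.

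The family was compared with its neighbours on the chromosome. Within 250 kb of the cluster the annotation lists 40 further genes, of which 10 had at least 20 UMIs, 0 were past 2-fold toward the small intestine and 1 (Sspo, 15 and 46 UMIs) was so toward the colon. Beyond Gimap3, Tmem176b and Tmem176a, a divergent pair of membrane protein genes linked to ILC3 and antigen-presenting cells, stood at 1443 and 1409 CPM in the small intestine and at 916 and 919 CPM in the colon, log2 ratios of 0.66 and 0.62. Their order of groups was unlike that of the Gimap genes: Tmem176b was highest in Ccr6+ cells, at 1934 CPM in small intestine against 1540 CPM in colon, and stood at 935 and 845 CPM in Klrd1+ cells. On the Gimap8 side AI854703 lay lower in the small intestine, at a log2 ratio of -0.49. The lincRNA gene 4833403J16Rik, which lies between Gimap5 and Gimap3, had a log2 ratio of 0.77 from 161 and 140 UMIs.

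**Figure D4:**
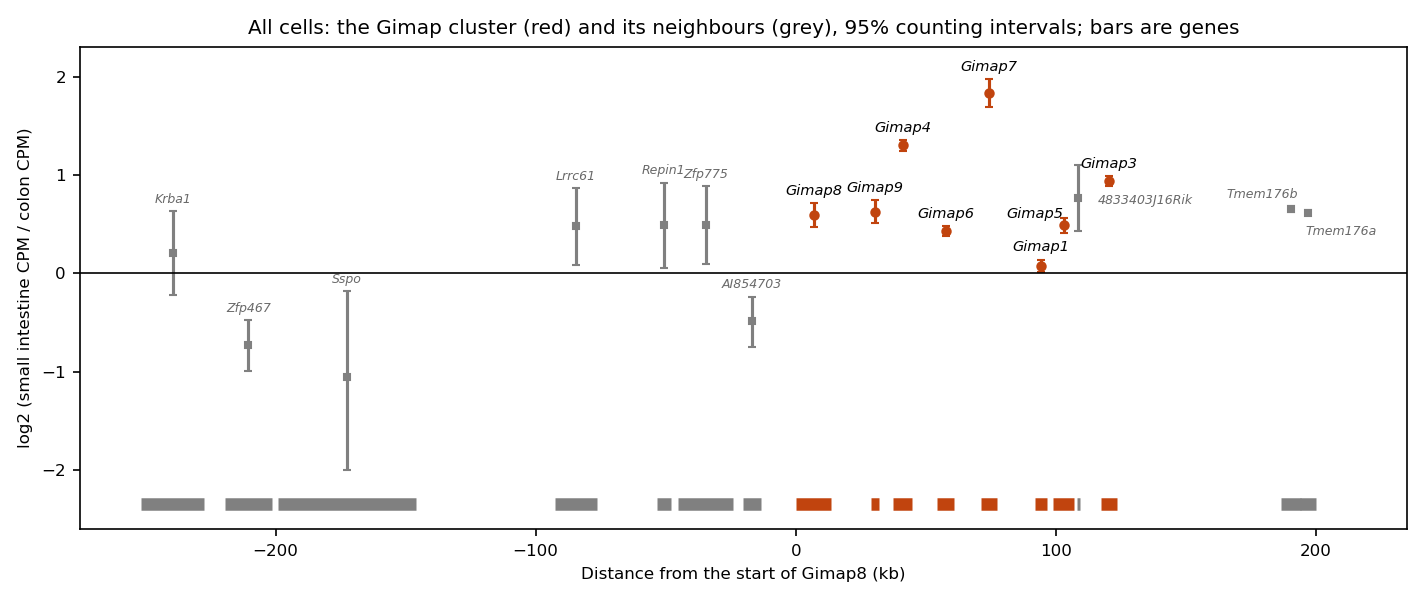
Log2 ratio of the small intestinal to the colonic level over all cells (vertical axis, 95% counting intervals) against distance from the start of Gimap8 (horizontal axis, kb) for the 8 Gimap genes (red) and the 10 neighbours with at least 20 UMIs (grey), with gene extents drawn as bars at the bottom. The Gimap genes run from 0.08 (Gimap1) to 1.83 (Gimap7) within 123.6 kb.

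Reads could be split between genes in 2 places. The annotated gene Gm28053, which spans Gimap7, Gimap1 and Gimap5, shares 3.48% of the exonic bases of Gimap7, 6.44% of Gimap1 and 3.69% of Gimap5, none of them in the last 300 bases where 3′ tags fall, and it had 6 and 7 UMIs. Gimap5 and Gimap3 share 190 stretches of 50 bases, 4.53% of those of Gimap5 and 7.52% of those of Gimap3, and no other pair of members shares one. Gimap1os, on the opposite strand of Gimap1, is not among the genes counted, so whether it took up reads was not tested. Values of Gimap5 and Gimap3 are uncertain to the extent that tags fell in the shared stretches, which was not tested.

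Gene lists tied to what the family is known for were set beside it. Over all cells 8.92% of all genes were past 2-fold toward the small intestine and 5.42% toward the colon, with a median log2 ratio of 0.20. Of 18 genes of lymphocyte quiescence and recirculation, 2 were past 2-fold toward the small intestine and 2 toward the colon over all cells. Their median log2 ratio was -0.19. Btg2, an antiproliferative gene, stood at 1964 CPM in small intestine against 767 CPM in colon, and Ms4a6b, a membrane protein gene of T cells, at 96.6 and 44.9 CPM. Ccr7, the lymph node homing receptor gene, was lower at 24.9 CPM against 149 CPM, and Bach2, a repressor gene of lymphocyte differentiation, at 4.11 against 10.97 CPM. The list thus went both ways while all 8 Gimap ratios lay above 1. In Cd3e+ cells 4 of the 18 were past 2-fold toward the small intestine, beside 5.12% of all genes, and 0 toward the colon, beside 4.32%. Among the 4 was Klf2, a quiescence transcription factor gene, at 360 against 127 CPM. The other groups did not lean this way. Toward the small intestine 2 of 17 passed in Ncr1+ cells (beside 9.26% of genes) and 1 of 16 in Ccr6+ cells (7.47%). Toward the colon 5 passed in Ncr1+ cells (4.13%) and 3 in Ccr6+ cells (3.4%). Gata3+ cells had 3 each way (7.42% and 4.4%) and Klrd1+ cells 2 each way (7.17% and 4.89%).

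Of 15 Bcl2 family genes, 0 were past 2-fold toward the small intestine, beside 8.92% of all genes, and 1 toward the colon, beside 5.42%. Their median was 0.06. The largest ratio was that of Bik, a death-promoting member, at 52.1 against 26.1 CPM, followed by Bcl2a1d, a protective member, at 362 against 220 CPM. Bid, which links death receptors to mitochondria, was the 1 past 2-fold, at 2.85 against 5.82 CPM, and Bcl2l1, a protective member, had 60.4 against 73.5 CPM. Of 13 autophagy genes 0 were past 2-fold in either direction, beside the same shares of all genes, with a median of 0.09. Gabarapl2, the partner of Gimap6, stood at 355 CPM in small intestine against 264 CPM in colon. The ends of that list were Sqstm1 (549 against 345 CPM) and Ulk1 (25.7 against 16.4 CPM) on one side and Becn1 (69.4 against 74.2 CPM) and Atg7 (58.5 against 61.2 CPM) on the other.

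Interferon-inducible GTPases, a GTPase family of cell defence unrelated to the cluster, had a median above that of the Gimap genes over all cells, but not in every group. Of the 14 with at least 20 UMIs, 8 were past 2-fold toward the small intestine over all cells, beside 8.92% of all genes. Toward the colon 0 were, beside 5.42%, and the list's median was 1.08. Iigp1 stood at 4.05 against 1.12 CPM and Tgtp1 at 5.04 against 1.43 CPM, while Gbp3 (3.32 against 3.54 CPM) and Gbp4 (38.2 against 39.4 CPM) lay at the other end. In Gata3+ cells 8 of 14 were past 2-fold in the small intestine, beside 7.42% of all genes, and in Ncr1+ cells 2 of 14, beside 9.26%. The list's median was 1.30 in Gata3+ cells against 0.62 for the 8 Gimap genes, and 0.71 against 0.56 in Cd3e+ cells. In Klrd1+ cells the medians were 0.557 and 0.553. The list lay lower in Ncr1+ cells, at 0.37 against 0.43, and in Ccr6+ cells, at 0.28 against 0.78. In Ccr6+ cells only 6 of its 16 genes had at least 20 UMIs. Whether these counts differ between the groups was not tested.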

How the data were processed

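The libraries, 1 from each tissue, were 10x Genomics Chromium 3′ v2 libraries of sorted cells. The deposited values are raw UMI counts per gene and cell, made by the authors with Cell Ranger 3.0.2 and mm10 per the submitters' processing notes; the gene annotation and the rule by which the authors chose cells for the series table are not given in the sources used here. The table's 17238 genes were compared with the deposited unfiltered matrices (0 values differed), and 0 columns were unmapped. The matrices held 19745585 UMIs for the small intestine and 25548284 for the colon.

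UMIs of a gene were summed over the cells of a set and divided by all UMIs of those cells (CPM). A 3′ tag is counted once per molecule, so levels were not scaled by gene length, and capture may differ between genes. Intervals are exact Poisson for levels, exact conditional binomial for ratios and Clopper-Pearson for shares, all at 95% and for counting error only. Genes were called at 2-fold with at least 20 UMIs. Scaling to the median gene divides by the median ratio of genes with at least 20 UMIs. Thinning to 1000 UMIs left out 0 cells. Barcodes holding 10 to 50 UMIs gave the profile of free RNA; its share in cells was taken from 3 antibody genes (Jchain, Igha, Igkc) over cells with at most 10 such UMIs. No doublets were removed from the cells reported: the automatic Scrublet threshold marked 0 cells, so leaving out the top-scoring 241 and 456 cells is an alternative.

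The named genes were all 8 members in every group, the 5 genes most like their sum (at least 200 UMIs, without mitochondrial, ribosomal, predicted, antibody, T cell receptor and sex-linked genes), genes within 250 kb, and the largest ratios each way of 4 gene lists. The members, markers and lists were chosen with earlier results of these data known. Promoter sequences are from RefSeq (GRCm38.p6) and positions from GENCODE vM21, matched by symbol for 8 of 8 genes. Ratios and intervals were tested on simulated counts. Python 3.11.15, numpy 2.4.6, scipy 1.17.1, pandas 2.3.3, scanpy 1.11.5 and matplotlib 3.10.9 were used.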

Additional observations from a re-analysis of the deposited data

Results flagged for a closer look

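Gimap RNA was also present in barcodes outside the table of cells, which no comparison above uses. These barcodes, 268341 and 254978 with at least 1 UMI, had a Gimap sum of 1853 CPM (1814 to 1893) in the small intestine and 1132 CPM (1096 to 1170) in the colon, above the limit that a count of 0 would allow. Both values are a little below those of the cells of the same tissue, and the small intestine is the higher in both.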

How the results depend on the processing

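Of 96 alternative values 54 stayed within the counting interval (or, for counts, within 1.5 times) of the value reported, and 42 moved. The 54 include the values of the 5% mitochondrial limit, which left out 0 cells and so could not move. Spreads, taken as highest over lowest, and counts could not reverse. Of the 66 log2 tissue ratios of the Gimap sum 0 reversed, and all were above 0. Below, values are log2, in the order all, Ccr6+, Ncr1+, Gata3+, Klrd1+ and Cd3e+ cells where a setting moved all 6. Scaling to the median gene gave 0.51, 0.52, 0.19, 0.57, 0.43 and 0.50. Thinning to 1000 UMIs gave 0.66, 0.93, 0.19, 0.65, 0.33 and 0.44, and spreads over groups of 1.72 in small intestine and 2.33 in colon. The mean of the CPM of single cells gave 0.65 for all, 0.84 for Ccr6+, 0.26 for Ncr1+, 0.44 for Klrd1+ and 0.56 for Cd3e+ cells and a colonic spread of 1.91. Cells with 1 marker only gave 1.19 for Ccr6, 0.63 for Gata3, 0.039 for Klrd1 and 0.51 for Cd3e, and spreads of 1.34 in small intestine and 2.38 in colon. At least 2 UMIs of the marker gave 0.33 for Ncr1+, 0.50 for Gata3+ and 0.41 for Klrd1+ cells and a colonic spread of 1.80. Without cells with a Cd3e UMI the values were 0.82 for all and 0.82 for Ccr6+ cells, with a colonic spread of 1.70. Without top-scoring doublets Ncr1+ cells had 0.33 and the colonic spread was 1.72. With free RNA subtracted the colonic spread was 1.68. With Il1rl1, Tbx21 and Trdc as markers the spreads were 1.27 and 0.95.

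Added after the data had been seen were the colonic mix of marker sets (0.64), the sum without Gimap4 (0.59) and without Gimap7 (0.67), the cells with 0 UMIs of Hspa1a, and a fold of 1.5. That fold counted 5 members, with no share of all genes to set beside them. Cells called from the matrices at 1203 UMIs (5685 and 7742 cells) moved none of the values. The limit of 5% mitochondrial UMIs left out 0 cells and so could move none. The cause of the moves was not tested. The limits are 1 library per tissue, the 31 Klrd1-only cells of the small intestine, and in colonic Ccr6-only cells the 3 UMIs of Gimap7, 11 of Gimap9 and 18 of Gimap4. No paired analysis was possible because each tissue had 1 library, a pool of mice, and the shared number 1 pairs nothing.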

Other observations

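Depth per cell went with the Gimap sum differently in the tissues. In 4 equal parts of the cells by UMIs, the colonic sum stood at 1659, 1316, 1117 and 1121 CPM from the shallowest to the deepest part, and the small intestinal sum at 1964, 2215, 2182 and 1870 CPM. Among Gata3-only cells the sums were 1112, 981, 967 and 983 CPM in the colon and 1852, 1660, 1527 and 1356 CPM in the small intestine, higher in the small intestine in each of the 4.

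The free RNA of each tissue was as rich in Gimap RNA as its cells, at 2084 CPM in small intestine against 1174 CPM in colon. It was not the same in every member: Gimap5 stood at 291 CPM in free RNA and 196 CPM in cells of the small intestine and at 179 and 140 CPM in the colon, while Gimap1 stood at 223 and 247 CPM and at 157 and 234 CPM.

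Ccr7, of the recirculation list, stood at 690 CPM in colonic and 45.2 CPM in small intestinal Ccr6+ cells, and at 170 and 8.43 CPM in Ncr1+ cells, but at 104 and 126 CPM in Cd3e+ cells. Il7r was higher in the small intestine in each of the 5 groups, from 1233 against 655 CPM in Ccr6+ cells to 731 against 607 CPM in Cd3e+ cells.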
